A study of Mus musculus with 12 samples.

Results

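The genes described here build and guard the folding space of the endoplasmic reticulum (ER), the compartment in which secreted and membrane proteins are made. The set holds 38 genes chosen by function, with earlier results of these data known. Of these, 37 had a probe set that names a single gene and were tested, out of 11962 genes tested and 19937 genes measured. The 38 genes comprise 15 chaperones and folding enzymes, 3 sensors and regulators of the unfolded protein response, 14 genes of the translocon and signal peptidase and 6 genes of ER degradation. Sec61g, the gamma subunit of the translocation channel, lay only on probe sets that also name other genes and is not analysed here, which leaves 13 genes in its class.

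RNA of the small intestine was measured in male wild-type FVB mice, an inbred strain, with an age of 8 weeks in the labels. For 8 weeks, 6 mice ate a diet poor in polyunsaturated relative to saturated fat (low P/S), and 6 mice ate a control high-fat diet (control). Each mouse gave 1 Affymetrix whole-transcript array, made from 500 ng of total RNA without removal of ribosomal RNA. The segment of intestine and the time of dissection are not given in the labels.

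A protein bound for secretion enters the ER through the Sec61 channel, signal peptidase removes its leader, and chaperones and disulfide isomerases fold it. Proteins that fail to fold are returned to the cytosol and degraded. When unfolded proteins build up, the membrane sensors Ern1 (IRE1), Atf6 and Eif2ak3 (PERK) start the unfolded protein response, in which the factors Xbp1 and Atf6 raise the genes of folding and degradation. In the intestine this machinery serves enterocytes, which secrete lipoproteins, and goblet, Paneth and plasma cells, which secrete mucin, antimicrobial peptides and antibody.

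Many promoters of ER chaperones are known to hold the ER stress element, to which Atf6 binds beside the factor NF-Y. Promoters of 300 bases, 250 before and 50 after the start of transcription, were taken from RefSeq (GRCm38.p6) and matched 30 of the 38 genes. They are shown for 3 genes that carry the element and rose, for the degradation gene that fell, and for a translocon gene that rose and holds no element. Capitals mark the ER stress element, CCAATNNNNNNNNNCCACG, or its shorter form, ATTGG and CCACG with any single base between them, searched on both strands. Each sequence is written 5′ to 3′ on the strand of its gene.
Hspa5, chr2:34771840-34772139, plus strand: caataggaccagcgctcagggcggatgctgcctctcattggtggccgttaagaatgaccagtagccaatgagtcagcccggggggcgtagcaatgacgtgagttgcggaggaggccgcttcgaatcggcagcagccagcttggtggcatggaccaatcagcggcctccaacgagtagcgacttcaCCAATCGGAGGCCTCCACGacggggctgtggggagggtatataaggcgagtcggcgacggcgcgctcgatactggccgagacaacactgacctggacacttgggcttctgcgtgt
Hsp90b1, chr10:86705395-86705694, minus strand: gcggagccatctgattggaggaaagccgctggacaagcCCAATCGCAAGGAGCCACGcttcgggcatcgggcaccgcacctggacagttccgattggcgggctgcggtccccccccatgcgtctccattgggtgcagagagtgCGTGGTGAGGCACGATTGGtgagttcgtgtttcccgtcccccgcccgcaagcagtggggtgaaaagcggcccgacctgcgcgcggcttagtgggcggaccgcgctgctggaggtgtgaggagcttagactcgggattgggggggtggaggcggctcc
Pdia6, chr12:17266339-17266638, plus strand: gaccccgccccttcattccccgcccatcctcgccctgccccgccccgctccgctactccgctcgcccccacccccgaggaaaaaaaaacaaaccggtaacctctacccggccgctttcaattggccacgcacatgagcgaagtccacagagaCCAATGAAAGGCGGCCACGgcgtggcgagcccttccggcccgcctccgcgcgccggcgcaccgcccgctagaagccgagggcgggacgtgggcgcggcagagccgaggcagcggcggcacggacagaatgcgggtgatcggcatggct
Herpud1, chr8:94386179-94386478, plus strand: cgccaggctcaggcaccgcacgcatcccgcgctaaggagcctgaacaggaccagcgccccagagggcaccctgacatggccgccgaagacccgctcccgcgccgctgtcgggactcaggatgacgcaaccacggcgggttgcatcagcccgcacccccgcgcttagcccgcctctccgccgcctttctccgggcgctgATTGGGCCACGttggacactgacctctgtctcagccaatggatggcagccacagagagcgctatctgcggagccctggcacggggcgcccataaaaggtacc
Ssr4, chrX:73786773-73787072, plus strand: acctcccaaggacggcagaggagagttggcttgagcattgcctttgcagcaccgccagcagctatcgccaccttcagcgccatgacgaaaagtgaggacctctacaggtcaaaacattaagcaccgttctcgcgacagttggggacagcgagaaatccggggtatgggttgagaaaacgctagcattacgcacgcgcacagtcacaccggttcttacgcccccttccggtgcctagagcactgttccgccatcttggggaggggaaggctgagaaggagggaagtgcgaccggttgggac

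The full element stood in the promoters of 7 of 13 chaperone and folding genes with a promoter in the table (53.8%), in 0 of 10 translocon and signal peptidase genes, in 0 of 2 sensors and in 1 of 5 degradation genes (Syvn1). In the whole promoter table it stood in 37 of 27025 genes (0.137%). The chaperone genes were Hspa5, Hsp90b1, Pdia6, Calr, Canx, Dnajc3 and Creld2, and Hsp90b1 held it at 2 places. The 9 bases between the fixed ends differed from gene to gene, as these copies show, written on the strand that reads CCAAT first.
Hspa5, 65 to 47 bases before the start: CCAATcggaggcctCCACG
Pdia6, 98 to 80 bases before the start: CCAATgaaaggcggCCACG
Dnajc3, 105 to 87 bases before the start: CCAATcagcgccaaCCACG
Creld2, 126 to 108 bases before the start: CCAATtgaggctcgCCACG
Calr, 162 to 144 bases before the start: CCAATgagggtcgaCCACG
Canx, 145 to 127 bases before the start: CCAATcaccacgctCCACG
Syvn1, 44 to 26 bases before the start: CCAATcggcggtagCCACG

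The shorter form stood before the start of Herpud1 and after the start of Dnajb11, that is in 2 of the 30 genes (6.67%), against 12 genes (0.0444%) of the whole table. The CCAAT box alone, which is part of the full element, was found in 22 of the 30 genes (73.3%) and in 41.1% of all genes. The letters TGACGTGG, a form bound by Xbp1 and Atf6, were in none of the 30 promoters and in 0.714% of all genes. These matches describe letters in a window and do not show that a factor binds there.

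On the low P/S diet, 22 of the 37 tested genes were higher (59.5%), 1 was lower and 14 did not pass the test. Over all tested genes, 17.8% were higher and 7.87% were lower. The set was chosen with earlier results of these data known, so its share is a description only. Passing means an adjusted p under 0.05 from limma, with Benjamini-Hochberg adjustment over all 11962 genes. Differences are log2 values of low P/S minus those of control, and intensities are given as lowest, median and highest of the 6 arrays of a diet. The median difference of the 37 genes was 0.25, and 34 of the 37 differences were positive, whereas the median over all genes was 0.02 and 55.8% were positive. The genes of this set are fairly bright, and among the 5896 genes at or above the dimmest of them 25.1% were higher and 11.2% lower. In 7 of the 37 genes all 6 low P/S arrays lay above all 6 control arrays, a pattern that 6.86% of all genes showed. The reverse pattern was found in 0 of the 37 and in 3.9% of all genes.

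By class, the counts were as follows, beside 17.8% higher and 7.87% lower over all tested genes. Translocon and signal peptidase genes were higher in 11 of 13, with a median difference of 0.33. Chaperones and folding enzymes were higher in 9 of 15, with a median of 0.25. Of the sensors and regulators 1 of 3 was higher, with a median of 0.18, and of the degradation genes 1 was higher and 1 lower of 6, with a median of 0.08. The share of higher degradation genes, 16.7%, was near that of all tested genes. Differences between the classes were not tested. In whole tissue, a change in the number of cells that make a transcript and a change in the transcript per cell cannot be told apart.

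**Figure D1:**
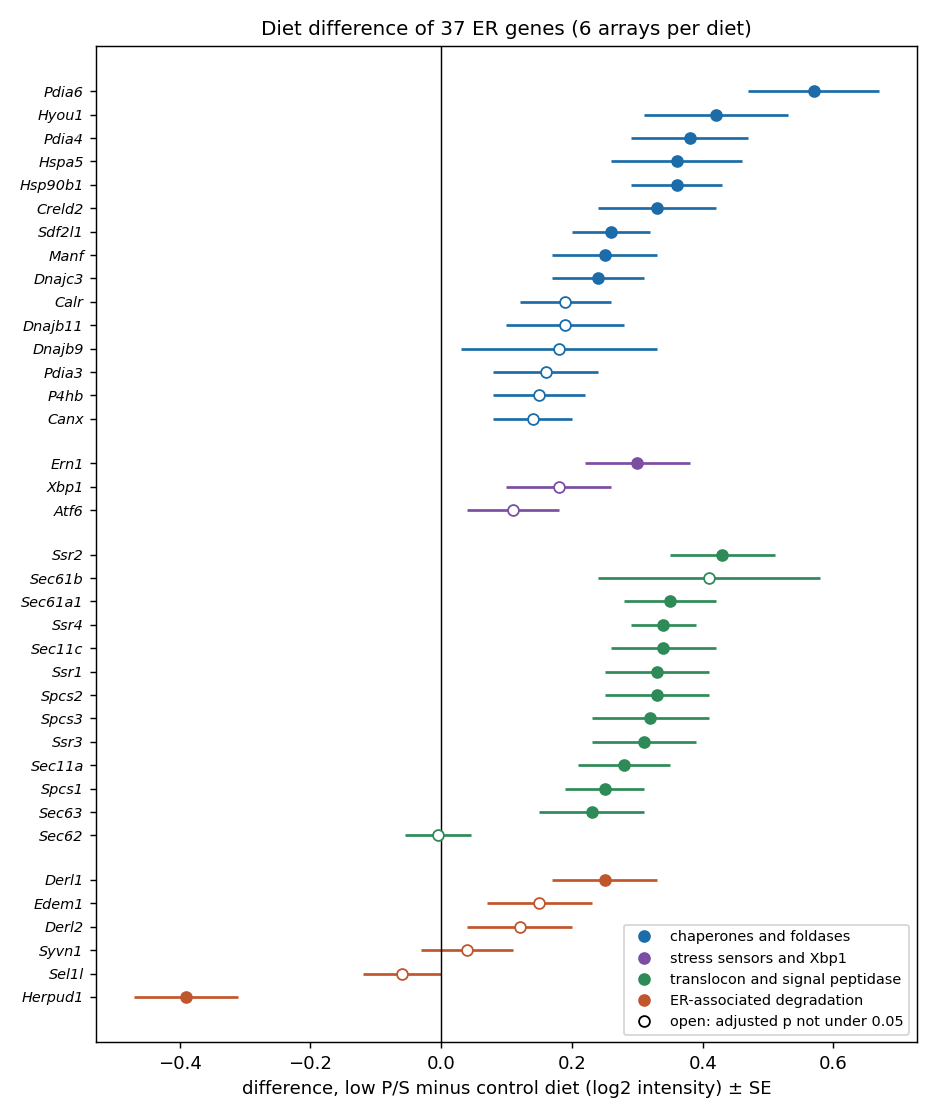
Difference of each of the 37 tested genes (log2, low P/S minus control), grouped by class, with bars of 1 standard error from limma. Filled points passed the test. All 15 chaperone and folding genes lie right of 0, and Herpud1 lies farthest to the left at -0.39.

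Among the chaperones and folding enzymes the highest difference was that of Pdia6, a protein disulfide isomerase. Its intensity was 976 at the lowest, 1051 at the median and 1371 at the highest in low P/S mice, against 589, 733 and 883 in control mice. All low P/S arrays stood above all control arrays. The difference was 0.57 ± 0.10 (± is the standard error from limma; 1.48-fold, limma adjusted p = 0.000677, n = 6 each).

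Hsp90b1, or GRP94, the ER member of the Hsp90 family, had intensities of 3367, 3639 and 4108 at the lowest, median and highest low P/S array, against 2474, 2910 and 3358 in controls. The groups did not overlap, but the lowest low P/S array and the highest control array were nearly level. Hsp90b1 was 1.28-fold higher (0.36 ± 0.07, limma adjusted p = 0.00222).

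Hspa5, or BiP, the ER Hsp70 that also holds the stress sensors inactive, had intensities of 2566, 3018 and 3740 in low P/S mice, against 2065, 2171 and 3112 in control mice. The groups overlapped, since control array 5 stood above 3 of the low P/S arrays, while all 6 low P/S arrays stood above the control median. The mean difference was as large as that of Hsp90b1, but its error was wider (0.36 ± 0.10, 1.28-fold, limma adjusted p = 0.0183). Without control arrays 1 and 2 together the adjusted p was 0.0599.

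Pdia4, another disulfide isomerase, had intensities of 1044, 1126 and 1392 in low P/S mice, against 748, 881 and 1076 in control mice. In 5 of 6 low P/S arrays it stood above all controls (1.31-fold, 0.38 ± 0.09, limma adjusted p = 0.00406). A second, dim probe set of Pdia4 read 74.8 in low P/S mice and 74.6 in control mice.

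Hyou1, the exchange factor that frees BiP from its nucleotide, had intensities of 570, 657 and 864 in low P/S mice, against 434, 524 and 615 in control mice. It stood above all controls in 4 of 6 low P/S arrays (1.34-fold, 0.42 ± 0.11, limma adjusted p = 0.00967). Sdf2l1, a partner of the BiP cochaperones, had intensities of 315, 336 and 369 in low P/S mice, against 250, 282 and 312 in control mice. Here the groups did not overlap (1.19-fold, 0.26 ± 0.06, limma adjusted p = 0.00491).

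Of the remaining members of this class, Creld2 and Manf, small ER proteins known to be induced by ER stress, rose 1.26-fold and 1.19-fold (limma adjusted p = 0.0131 and 0.0221). Dnajc3, a J-domain cochaperone of BiP, rose 1.18-fold (limma adjusted p = 0.0232). The call of Dnajc3 was lost without low P/S array 1 or 4 or without control array 3 or 6. That of Manf was lost without control arrays 1 and 2 together (adjusted p = 0.0633), and both were lost after quantile normalization (adjusted p = 0.0646 for Dnajc3 and 0.0648 for Manf).

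The other 6 chaperones and folding enzymes did not pass. The lectin chaperones Calr and Canx, which hold glycoproteins during folding, had differences of 0.19 ± 0.07 (adjusted p = 0.0561) and 0.14 ± 0.06 (adjusted p = 0.0801). Their isomerase partner Pdia3 had 0.16 ± 0.08 (adjusted p = 0.149), and P4hb, the classical disulfide isomerase, 0.15 ± 0.07 (adjusted p = 0.131). The J-domain cochaperones Dnajb11 and Dnajb9 had 0.19 ± 0.09 (adjusted p = 0.137) and 0.18 ± 0.15 (adjusted p = 0.408). All 6 differences were positive. Calr passed when control array 5 was left out (adjusted p = 0.00743). Leaving out low P/S array 3 gave Calr an adjusted p of 0.046 and Dnajb11 one of 0.0384.

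**Figure D2:**
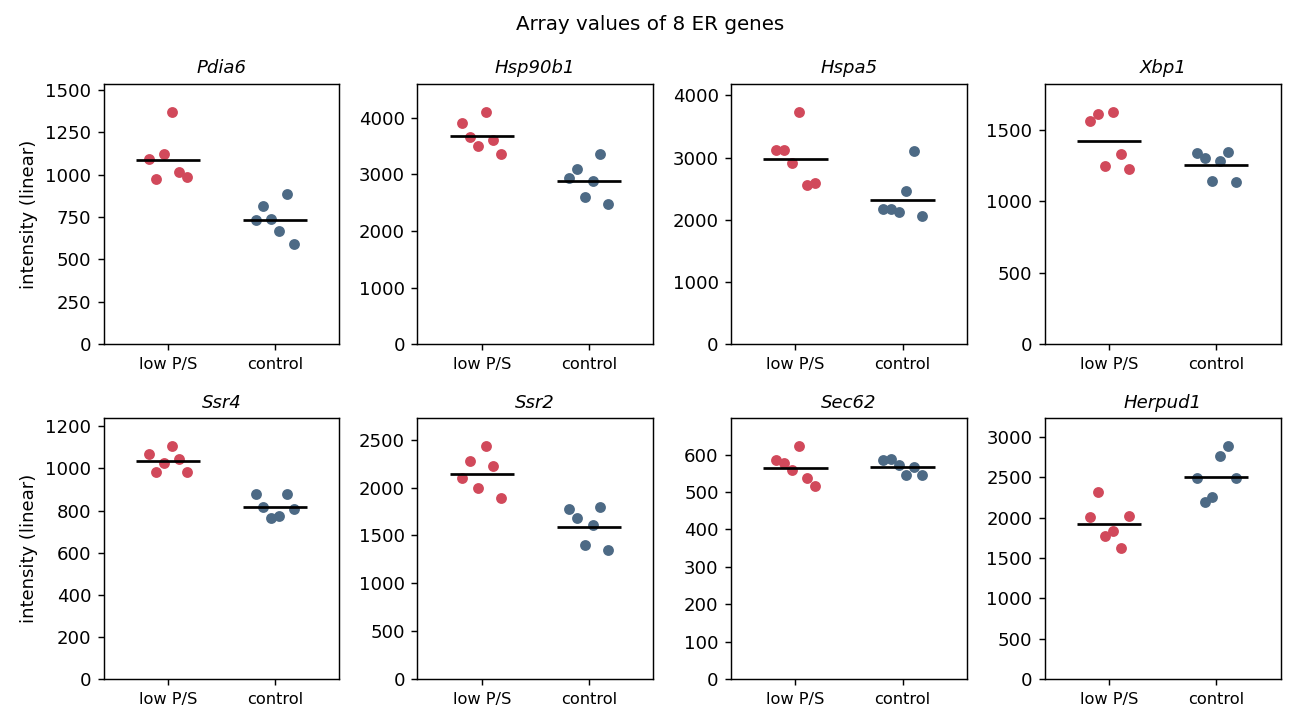
Deposited intensity on a linear axis from 0 of 8 genes, 1 point per array, low P/S left and control right, with a line at the geometric mean of 6 arrays. Pdia6, Hsp90b1, Ssr4 and Ssr2 separate the diets fully, Hspa5, Xbp1 and Sec62 overlap, and Herpud1 runs the other way.

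The chaperones moved together across arrays within each diet. Low P/S array 4 was the highest of its group in 13 of the 15 genes, and control array 5 was the highest control in 14 of the 15. Control array 6 was the lowest control in 9 of the 15. The mean deviation of the 15 genes from their own averages over all arrays ran from 0.02 to 0.36 in low P/S mice, against -0.29 to 0.07 in control mice, on the log2 scale, so that the groups overlapped only through control array 5.

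**Figure D3:**
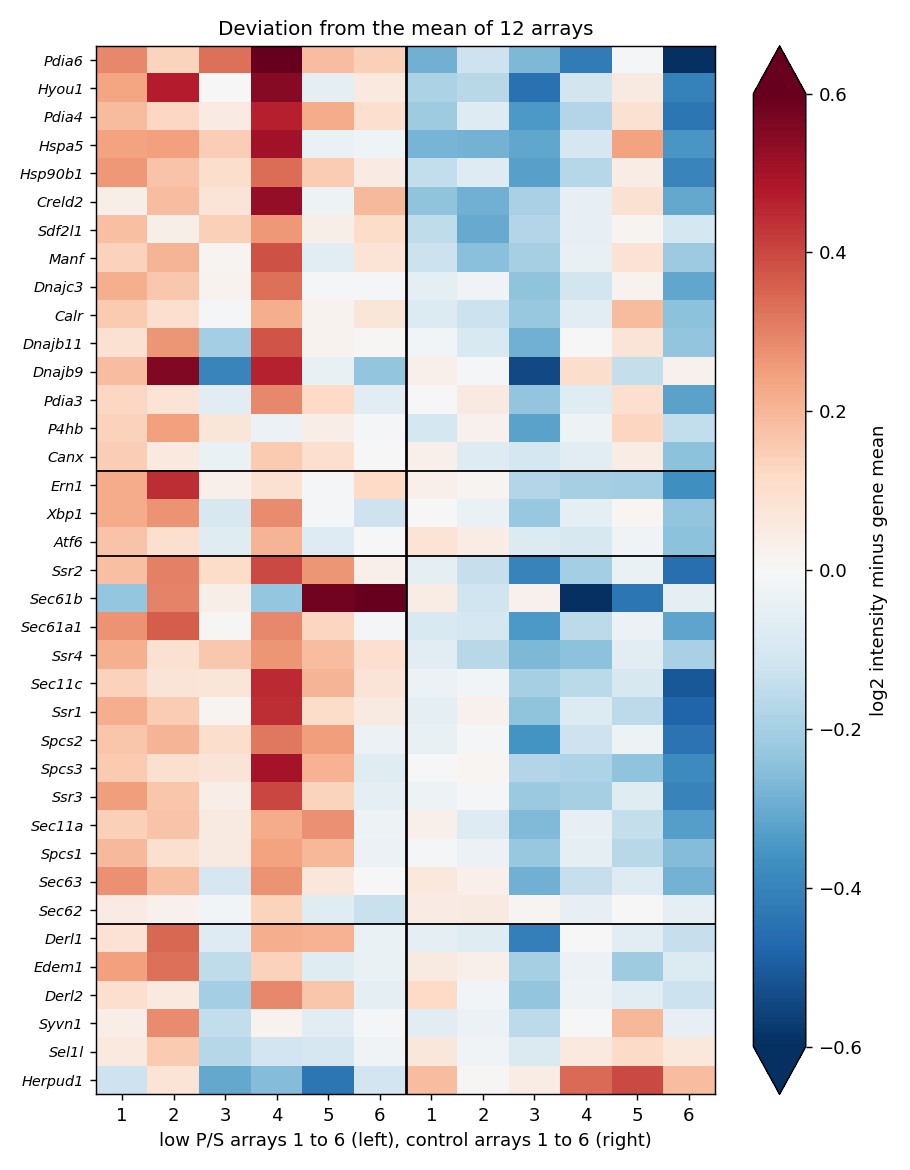
Deviation of each of the 37 genes from its own mean over the 12 arrays on the log2 scale, with low P/S arrays left and control arrays right. Low P/S array 4 and control array 5 are the highest of their groups for most chaperones, and control array 6 is low for most translocon genes.

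Of the sensors and regulators, Ern1, the kinase and endonuclease that splices Xbp1, had intensities of 218, 235 and 297 at the lowest, median and highest low P/S array, against 169, 192 and 224 in control mice. It stood above all controls in 4 of 6 low P/S arrays (1.23-fold, 0.30 ± 0.08, limma adjusted p = 0.0130).

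Xbp1, its target and a transcription factor of the response, had intensities of 1227, 1444 and 1627 in low P/S mice, against 1132, 1290 and 1345 in control mice. The groups overlapped and the difference of 0.18 ± 0.08 did not pass (limma adjusted p = 0.101), though it passed without low P/S array 6 (adjusted p = 0.0454). Splicing of Xbp1 was not analysed here.

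Atf6, the membrane-bound factor cut in the Golgi, had intensities of 312, 340 and 379 in low P/S mice, against 278, 317 and 348 in control mice. The groups overlapped, and its difference of 0.11 ± 0.07 did not pass (limma adjusted p = 0.249).

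The translocon and signal peptidase genes had the highest share of calls, 84.6%. Ssr4, the delta subunit of the translocon-associated protein complex, had intensities of 981, 1036 and 1105 in low P/S mice, against 764, 812 and 880 in control mice. The groups were clearly apart. Ssr4 was 1.26-fold higher (0.34 ± 0.05, limma adjusted p = 0.000288).

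Ssr2, the beta subunit of the same complex, had intensities of 1890, 2161 and 2432 in low P/S mice, against 1352, 1642 and 1796 in control mice. The groups did not overlap and the difference was 0.43 ± 0.08 (1.35-fold, limma adjusted p = 0.00123). The complex helps certain leaders enter the channel, and its remaining subunits Ssr1 and Ssr3 rose as well, 1.26-fold and 1.24-fold (limma adjusted p = 0.00970 and 0.00934), each above all controls in 5 of 6 low P/S arrays.

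Sec61a1, which forms the pore of the channel, had intensities of 2243, 2599 and 2909 in low P/S mice, against 1781, 2065 and 2204 in control mice. Here too the groups did not overlap (1.27-fold, 0.35 ± 0.07, limma adjusted p = 0.00325). Sec63, which brings BiP to the channel, rose 1.17-fold (limma adjusted p = 0.0389), a call lost under 10 of the 22 other settings tried, with the highest adjusted p at 0.114. Its partner Sec62 did not pass, with intensities of 515, 568 and 622 in low P/S mice and 545, 569 and 587 in control mice (difference -0.0047 ± 0.05, limma adjusted p = 0.957).

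Sec61b, the beta subunit of the channel, had a difference of 0.41 ± 0.17 that did not pass (limma adjusted p = 0.0878). Its intensities spread widely, with 257, 340 and 525 in low P/S mice, against 186, 284 and 312 in control mice. Its other probe sets read 269 in low P/S mice and 228 in control mice, and 119 in low P/S mice and 111 in control mice. The mean of the 3 probe sets passed (limma adjusted p = 0.0141).

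All 5 measured genes of signal peptidase rose. Spcs1 had intensities of 1419, 1607 and 1718 in low P/S mice, against 1212, 1346 and 1441 in control mice, and the groups overlapped through a single low P/S array (1.19-fold, 0.25 ± 0.06, limma adjusted p = 0.00680). Spcs2 had intensities of 1540, 1793 and 1962 in low P/S mice, against 1161, 1488 and 1572 in control mice, with the same degree of overlap (1.26-fold, 0.33 ± 0.08, limma adjusted p = 0.00687).

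The catalytic subunits Sec11a and Sec11c rose 1.21-fold and 1.27-fold (limma adjusted p = 0.00753 and 0.00749), and in Sec11c the groups did not overlap. Spcs3 rose 1.25-fold (limma adjusted p = 0.0127). Its adjusted p was 0.0502 when low P/S array 4 and control array 5 were left out together.

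Across arrays, low P/S array 4 was again the highest of its group, in 9 of the 13 translocon and signal peptidase genes, and control array 6 the lowest control in 9. Control array 5, highest for chaperones, was the highest control in 2 of these 13 genes. The mean deviation of the 13 genes ran from 0.05 to 0.28 in low P/S mice, against -0.32 to -0.01 in control mice, with no overlap.

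**Figure D4:**
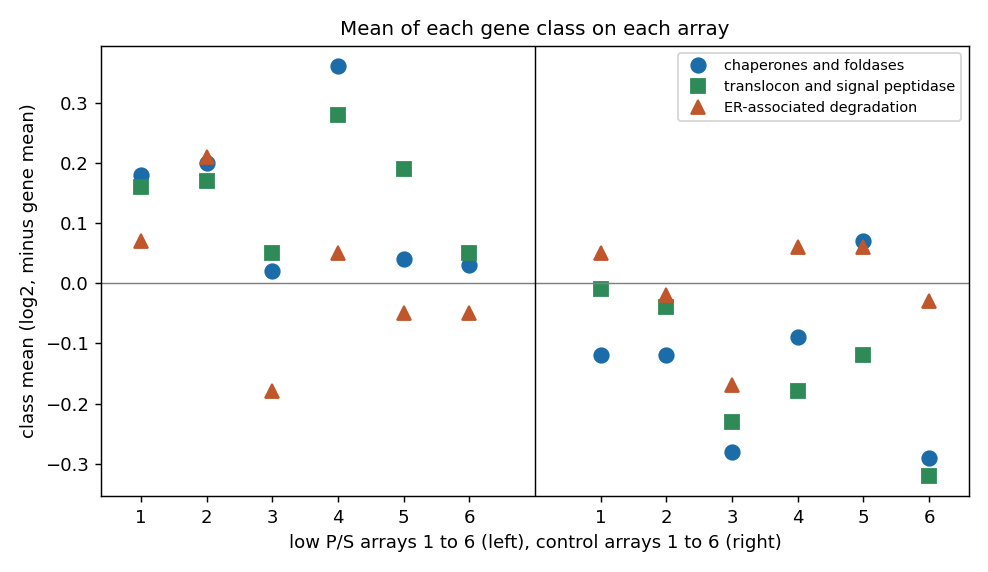
Mean deviation of the genes of 3 classes from their own averages over the 12 arrays, log2 scale, for each array, low P/S left and control right. The translocon and signal peptidase values do not overlap between diets, while those of the degradation genes run from -0.18 to 0.21 in low P/S mice and from -0.17 to 0.06 in control mice.

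In the class of ER degradation, Herpud1 fell and Derl1 rose. Herpud1, a membrane protein that assembles the degradation complex, had intensities of 1623, 1922 and 2317 at the lowest, median and highest low P/S array, against 2199, 2491 and 2886 in control mice. In 5 of 6 low P/S arrays it stood below every control. Herpud1 was 1.31-fold lower (difference -0.39 ± 0.08, limma adjusted p = 0.00394), opposite in sign to Hspa5 and Hsp90b1 in the same mice.

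Derl1, a candidate part of the channel back to the cytosol, had intensities of 887, 1039 and 1188 in low P/S mice, against 704, 894 and 940 in control mice. It stood above all controls in 4 of 6 low P/S arrays (1.19-fold, 0.25 ± 0.08, limma adjusted p = 0.0331). The call was lost without low P/S array 2, 4 or 5, without control array 3 or 6, and after quantile normalization (adjusted p = 0.0836).

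The remaining 4 degradation genes did not pass. Edem1, which takes up misfolded glycoproteins, had intensities of 860, 990 and 1202 in low P/S mice, against 825, 918 and 992 in control mice (difference 0.15 ± 0.08, limma adjusted p = 0.189). Derl2 had 472, 574 and 665 in low P/S mice, against 462, 527 and 592 in control mice (0.12 ± 0.08, limma adjusted p = 0.282). In both genes the groups overlapped, with 3 low P/S arrays above all controls for Edem1 and 2 for Derl2.

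Sel1l, the adaptor of the ubiquitin ligase complex, had intensities of 850, 916 and 1065 in low P/S mice, against 899, 996 and 1034 in control mice (difference -0.06 ± 0.06, limma adjusted p = 0.448). The ligase itself, Syvn1, had 253, 281 and 341 in low P/S mice, against 251, 272 and 322 in control mice (0.04 ± 0.07, limma adjusted p = 0.736). In both genes the groups overlapped.

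Set beside the promoter letters, 5 of the 8 genes with the full element were higher (Hspa5, Hsp90b1, Pdia6, Dnajc3 and Creld2), and Calr, Canx and Syvn1 did not pass. This is near the share of the whole set, of which 59.5% were higher. Over all tested genes the shares were 17.8% higher and 7.87% lower. Among all 15 tested genes with the element, the 8 of the set included, 8 were higher and 0 lower. The 7 of them outside the set had 3 higher and a median difference of 0.09. The 10 translocon and signal peptidase genes with a promoter in the table had no element. Of these, Sec63, Ssr1, Ssr3, Ssr4, Spcs1, Spcs2 and Sec11a were higher, Sec61b and Sec62 did not pass, and Sec61g was not tested. Sec61a1, Ssr2, Spcs3 and Sec11c were also higher, but their promoters were not in the table and were not searched. Of the 8 tested genes with the shorter form 2 were higher and 3 lower, and Herpud1 was 1 of the 3.

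Other genes of the secretory pathway were counted to place the set, in lists also chosen with earlier results of these data known. The shares over all tested genes were 17.8% higher and 7.87% lower. Of 21 further ER folding genes 15 were higher and 0 lower, with a median difference of 0.23. Ppib, the ER cyclophilin, rose 1.29-fold and Txndc5, a disulfide isomerase, 1.24-fold (limma adjusted p = 0.00162 and 0.00235). Mogs, the glucosidase that first trims new glycans, rose 1.20-fold (limma adjusted p = 0.00221).

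Of 11 genes of the oligosaccharyl transferase, which attaches glycans beside the translocon, 8 were higher and 0 lower, with a median of 0.23. Rpn1 had intensities of 866, 961 and 1057 in low P/S mice, against 560, 719 and 825 in control mice, without overlap (1.35-fold, limma adjusted p = 0.00166). Krtcap2 rose 1.32-fold, Ddost 1.23-fold and Tmem258 1.18-fold (limma adjusted p = 0.000456, 0.00485 and 0.00576). Ostc, a subunit of the same enzyme that was counted with the folding genes, rose 1.37-fold (limma adjusted p = 0.00184).

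Of 13 genes of the signal recognition particle and its targeting, 7 were higher and 0 lower, with a median of 0.21. Srp68 and Srp72, which bind each other in the particle, rose 1.35-fold and 1.37-fold (limma adjusted p = 0.00129 and 0.00193), and Srprb, a receptor subunit, rose 1.23-fold (limma adjusted p = 0.00400). Of 20 genes of transport between the ER and the Golgi 6 were higher (30.0%) and 0 lower, with a median of 0.16. This share is near the 25.1% higher among the 5896 genes at or above the dimmest gene of the set. Leaving out 1 array gave 3 to 8 higher transport genes. Kdelr3, a receptor that returns ER proteins, had intensities of 362, 498 and 732 in low P/S mice, against 182, 242 and 474 in control mice (1.87-fold, 0.90 ± 0.22, limma adjusted p = 0.00636).

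Of 21 further degradation genes 8 were higher and 1 was lower, with a median of 0.15. Vcp, the ATPase that pulls proteins out of the membrane, had intensities of 1727, 2027 and 2263 in low P/S mice, against 1270, 1434 and 1642 in control mice, with no overlap (1.39-fold, limma adjusted p = 0.00042). Its cofactor Nploc4 rose 1.31-fold and Selenos, which ties Vcp to the membrane, 1.24-fold (limma adjusted p = 0.00351 and 0.00508). Marchf6, an ER ubiquitin ligase also known for degrading the sterol enzyme squalene monooxygenase, was 1.20-fold lower, and its groups did not overlap (limma adjusted p = 0.00321).

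Of 19 other regulators of ER stress 3 were higher (15.8%) and 1 was lower, with a median of 0.03. Over all tested genes 17.8% were higher. Asns, the asparagine synthetase induced through Atf4, had intensities of 423, 493 and 583 in low P/S mice, against 257, 305 and 362 in control mice (1.65-fold, limma adjusted p = 8.77e-05). Atf4 itself rose 1.23-fold (limma adjusted p = 0.00598). Mbtps1, the Golgi protease that cuts both Atf6 and the sterol regulators, rose 1.34-fold (limma adjusted p = 0.00407).

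Creb3l2, another membrane-bound factor that is cut in the Golgi as Atf6 is, was 1.43-fold lower, with intensities of 366, 420 and 472 in low P/S mice, against 532, 585 and 642 in control mice (limma adjusted p = 9.22e-05). Ddit3, or CHOP, which is induced in severe stress, had a difference of 0.12 ± 0.06 (limma adjusted p = 0.196), and its target Trib3 -0.08 ± 0.07 (limma adjusted p = 0.403). Neither passed.

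Chaperones outside the ER were counted as well. Of 14 genes 7 were higher and 0 lower, with a median of 0.19, beside 17.8% higher and 7.87% lower over all tested genes. The mitochondrial pair Hspe1 and Hspd1 rose 1.39-fold and 1.32-fold (limma adjusted p = 0.000553 and 0.00563), and the cytosolic Hsp90aa1 rose 1.40-fold (limma adjusted p = 0.00274).

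**Figure D5:**
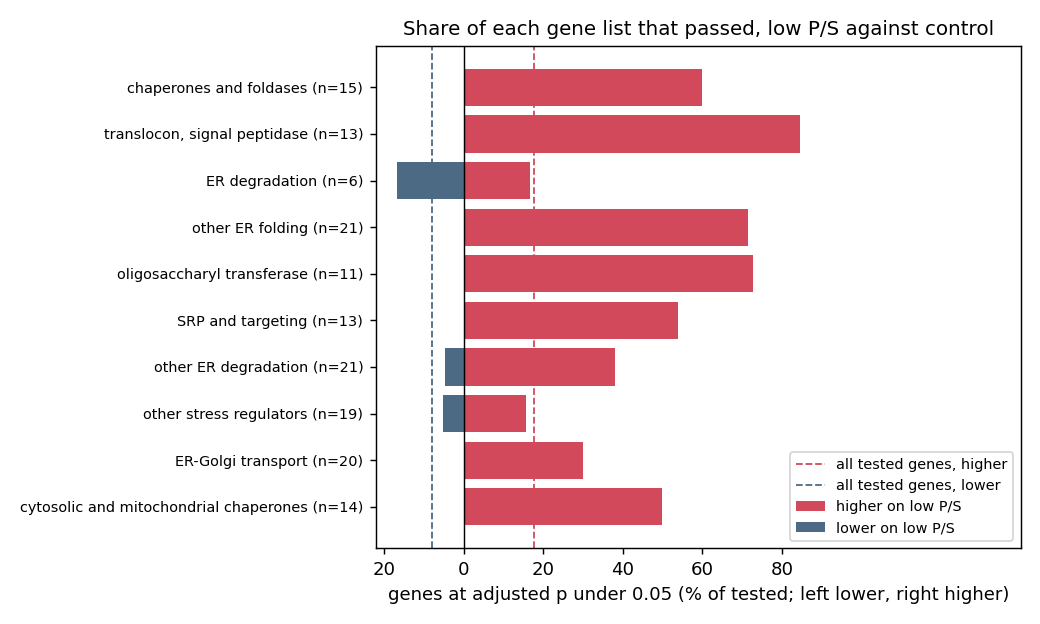
Share of the tested genes of each list that were higher (right of 0) or lower (left of 0) on the low P/S diet at adjusted p under 0.05, with dashed lines at the shares over all tested genes, 17.8% higher and 7.87% lower. The translocon and signal peptidase bar reaches 84.6%, and the bar of other stress regulators ends near the line of all genes.

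Markers of other cell types were counted against the same shares over all genes, 17.8% higher and 7.87% lower. Of 8 tested plasma and B cell markers 2 were higher and 0 lower, and 4 more of the 12 found were dim (Tnfrsf17, Irf4, Cd79a and Ms4a1). Jchain, the joining chain of secreted antibody, had intensities of 1682, 2066 and 2365 in low P/S mice, against 1006, 1151 and 1437 in control mice (1.73-fold, limma adjusted p = 3.39e-05). The summed level of all markers found, dim ones included, ran from 2776 to 3852 in low P/S mice, against 2179 to 2521 in control mice. Without Jchain the other 11 markers summed to 1084 to 1609 in low P/S mice, against 1080 to 1173 in control mice, and the groups overlapped.

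Of 8 tested goblet cell markers 2 were higher and 0 lower, with summed levels of 20840 to 24911 in low P/S mice, against 15467 to 22070 in control mice. Agr2, a disulfide isomerase of goblet cells, rose 1.55-fold (limma adjusted p = 0.00671), and Muc2, the main gut mucin, had a difference of 0.06 ± 0.08 (limma adjusted p = 0.565). Of 7 Paneth markers 1 was higher and 0 lower (20681 to 25169 in low P/S mice, 18565 to 24333 in control mice). Of 12 enteroendocrine markers 3 were higher (Sct, Cck and Chgb) and 1 was lower (Pcsk1n). The enteroendocrine markers summed to 3223 to 4073 in low P/S mice, against 2934 to 3458 in control mice.

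Of 12 enterocyte markers, all of which were bright enough to be tested, 2 were higher and 4 lower. The lower ones were Lct, Vil1, Sis and Epcam, and Epcam missed the threshold under 2 of 22 alternatives. These 4 had the smallest p of the list, and the 2 higher markers are not named here. Of all 12 differences 4 were positive and 8 negative. The enterocyte markers summed to 67718 to 78735 in low P/S mice, against 71802 to 95136 in control mice. Of the 10 pancreatic markers found 6 were dim and 0 of the other 4 passed in either direction, with summed levels of 1037 to 1219 in low P/S mice, against 1049 to 1160 in control mice. Of the 7 liver markers found 3 were dim, and 1 of the other 4 was higher (Cps1, which enterocytes also make). The liver markers summed to 4649 to 5368 in low P/S mice, against 3325 to 4558 in control mice, without overlap. Without Cps1 they summed to 472 to 1053 in low P/S mice, against 480 to 867 in control mice. When 1 array was left out, 1 to 3 plasma and B cell markers, 1 to 3 goblet, 0 to 2 Paneth, 2 to 4 enteroendocrine and 0 to 2 enterocyte markers were higher. Mzb1 lost its call in 9 of these 12 fits, Pcsk1n in 8, Pla2g2a in 7, Chgb in 6 and Clca1 in 5. Jchain and Agr2 kept theirs in all 12. The part of these cell types in the ER result was not tested.

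Clock genes also differed between the diets, with 2 of 14 higher (14.3%) and 10 lower. Over all tested genes 17.8% were higher and 7.87% lower. Dbp was 4.10-fold lower on the low P/S diet (limma adjusted p = 4.9e-05). Arntl, a core clock gene, varied with the array number in both diets. It was highest in arrays 1 and 2 (466 and 490 in low P/S mice, 207 and 185 in control mice) and lowest in array 6 (181 in low P/S mice, 87.7 in control mice). What the numbers stand for is not given in the labels. The part of the time of day in the ER result was not tested. The arrays also differed in their overall spread. The upper quartile of all probe sets ran from 217 to 234 in low P/S mice, against 212 to 229 in control mice. Control array 6, with the lowest upper quartile, also had the lowest chaperone and translocon values. Low P/S array 4, with the highest upper quartile (234), also had the highest mean deviations, 0.36 for chaperones and 0.28 for translocon genes. Low P/S array 3, with the lowest upper quartile of its group (217), had 0.02 and 0.05. Low P/S array 6, with an upper quartile of 231, had 0.03 and 0.05. Control arrays 3 and 5 both had an upper quartile of 217, with mean chaperone deviations of -0.28 and 0.07. Their mean translocon deviations were -0.23 and -0.12. The part of the spread in the ER result was not tested. After quantile normalization, which makes the spread of all arrays equal, 19 of the 37 genes were higher, 7 of the 15 chaperones and 11 of the 13 translocon and signal peptidase genes among them, and 2 were lower.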

How the data were processed

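The authors deposited 1 intensity value per probe set and array on a linear scale. How they were summarized and normalized is not stated in the labels. The deposited table has 34760 probe sets with intensities of 17.7 to 20294, and array medians ran from 91.9 to 97.9 in low P/S mice, against 94.5 to 99.5 in control mice. Probe sets naming 1 gene symbol were kept (21640, against 1321 with several and 11799 with none), and 21553 matched RefSeq by Entrez gene ID. The brightest per gene by its mean over all 12 arrays was used. Genes under the 40th percentile of mean level (intensity 85.6) were left out, which removed 7975 genes. The log2 value was compared in a two-sided test by limma 3.58.1 (lmFit, eBayes, diet only) in R 4.3.3, with Benjamini-Hochberg adjustment over all genes tested. Other steps used Python 3.11.15, NumPy 2.4.6, pandas 2.3.3 and matplotlib 3.10.9.

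Per the labels' design text, arrays within a diet are biological replicates, so the p-values rest on the spread between mice. In each class up to 5 genes of smallest p, and Hspa5, Xbp1, Atf6 and Ern1 whatever their values, have their array values given. Those of Sec61b, Sec62 and Syvn1 were added after their values were seen. Up to 4 tested genes of smallest p are named from the other lists, but none from the pancreatic list. The brightest 2 genes of each marker list are not all named. Arntl, Ddit3, Trib3, Eif2ak3 and the genes of small counts were named after their values were seen. The members and lists were chosen with earlier results of these data known. No set was tested. On simulated data with 11962 genes, 29 of 50 genes planted at a log2 difference of 0.25 and 50 of 50 at 0.5 were recovered, and 7 of 186 calls were false. The simulated noise was drawn independently for each gene, so it held no differences between arrays that many genes share. Far fewer genes differed than the 3074 called in the real data. These counts therefore hold for the simulated setting only. Alternatives were quantile normalization, median centring, other dim filters, the mean of probe sets, a trended prior, a pseudocount of 16, the replicate number as a block, and leaving out arrays.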

Additional observations from a re-analysis of the deposited data

Results flagged for a closer look

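In 178 groups of 6 arrays examined, 7 held an array far from the others of its diet by Dixon's 95% criterion, and chance alone gives about 1 in 20. Among the genes of the set 3 of 74 groups did so. Sec11c read 444 in low P/S array 4, where the next array read 375, and 229 in control array 6, where the next read 284. Derl1 read 704 in control array 3, where the next read 851. In other lists, Ddost read 1067 in low P/S array 4 (next 952), Mzb1 153 in low P/S array 3 (next 120), Atf4 446 in control array 2 (next 390) and Clca1 2250 in control array 6 (next 3242).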

How the results depend on the processing

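Of the 23 genes of the set that passed, 17 passed under all 22 alternatives and 6 (Hspa5, Dnajc3, Manf, Sec63, Spcs3 and Derl1) missed the threshold under at least 1. Of the 14 others, 8 passed under at least 1. Leaving out 1 array gave 19 to 24 higher genes in the set (22 with all arrays), 8 to 11 chaperones, 10 to 11 translocon genes, 1 to 2 sensors and 0 to 1 degradation genes, with 1 lower gene (Herpud1) throughout. Over all genes it gave 1610 to 2353 higher and 788 to 1051 lower. Under quantile normalization 1543 genes were lower (942 without it) and 2 of the set and of the degradation class were lower, Sel1l (adjusted p = 0.045) joining Herpud1, while 0 degradation genes were higher. Without low P/S array 4 and control array 5, chosen after seeing the data, 1345 genes were higher (2132 with them), with 20 of the set and 0 of the degradation class. Syvn1 changed sign under quantile normalization (-0.03) and without low P/S array 2, and ran from -0.02 to 0.08 when 1 array was left out. Sec62 changed sign with median centring (0.02), without control arrays 1 and 2 together (0.02), and without low P/S array 5 or 6 or control array 1 or 2, within a range of -0.03 to 0.02 when 1 array was left out. Quantile normalization and median centring moved the log2 difference between the diets by -0.043 and 0.026, as the median change over all tested genes. The causes were not tested. With the replicate number as a block, 29 genes of the set were higher, of which 13 were chaperones, 12 translocon genes, 2 sensors and 2 degradation genes. The genes gained were Pdia3, Calr, Canx, Dnajb11, Xbp1, Sec61b and Edem1 (adjusted p = 0.0276 to 0.048), and Herpud1 stayed lower. For each array, the deviation of every tested gene from the mean of its diet was taken. The correlation of these deviations between same-numbered arrays ran from -0.109 to 0.418 and was over 0.1 for 3 of the 6 numbers. Low P/S arrays 3 and 6 correlated best with the control array of the same number. Arrays 1 and 4 correlated best with control array 2, and arrays 2 and 5 with control array 1. The labels give the numbers no meaning, so the block was kept as an alternative. These correlations do not decide whether the arrays share structure by number. The clock gene Arntl was highest in arrays 1 and 2 and lowest in array 6 of both diets. Whether the numbers mark a shared time or batch was not tested. The number of arrays and the unknown normalization limit small differences.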
